A study of Rattus norvegicus with 6 samples.

Results

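Chemokines are small secreted proteins that direct the movement of leukocytes and some other cells, and chemokine receptors are the G protein-coupled receptors on the surface of the cells that respond. The genes described here are those of the CC, CXC, CX3C and XC ligand and receptor families, taken by their symbols from every probe that was not a control. They numbered 51 of the 15154 genes that could be named on the array, and were represented by 55 of 30367 probes. There were 33 ligand genes (20 CC, 11 CXC, Cx3cl1 and Xcl1) and 18 receptor genes (10 CC, 6 CXC, Cx3cr1 and Xcr1). Ccl20, Cxcl12, Xcl1 and Xcr1 had 2 probes each, and the probe with the higher mean signal was used.

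The ovaries came from female Wistar rat pups killed on PND 7. LPS (lipopolysaccharide of Salmonella enterica, a ligand of Toll-like receptor 4) had been given intraperitoneally at 0.05 mg/kg on PNDs 3 and 5, and control pups had received the same volume of saline. No transgene or other agent was used in either treatment. Ovarian RNA was measured on 6 single-colour arrays, 3 for each treatment. Per the study's methods, whole litters received 1 treatment and the arrays are biological replicates, and the array ovaries came from 5 animals and 2 litters a treatment. Arrays of a treatment therefore share litters, and litter and treatment cannot be told apart. In whole ovary, fewer cells of a type and less RNA per cell cannot be told apart either.

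In the ovary, CC and CXC ligands are known from stromal, endothelial, granulosa and resident immune cells. Ligands named inflammatory are switched on by Toll-like receptor and cytokine signals, largely through NF-κB and, for the Cxcr3 ligands, through interferon. Those named homeostatic, such as Cxcl12 and Ccl21, are made constantly and position cells in a tissue. Cxcl12 and its receptor Cxcr4 also guide primordial germ cells to the gonad.

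Each array's processed signal was put on a log2 scale and its 75th percentile taken away, so that 0 is the signal below which 75% of its probes lie. A gene was called well above background on an array when the software marked all its unflagged spots so. Of the 51 genes, 17 were well above background on all 6 arrays, 14 on some and 20 on none, whereas 63.8% of all named genes had such a signal on all arrays and 22.7% had it on none. Between 24 and 29 members were well above background on the LPS arrays and between 20 and 23 on the saline arrays. Another 5 members, Ccl7, Ccl12 and Cxcl9 among them, were well above background on LPS arrays only, and 0 on saline arrays only. The share of all spots well above background also ran higher on the LPS arrays, from 72.4% to 76.0% against 66.3% to 70.4% on the saline arrays.

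The arrays were not alike within the saline treatment. Saline replicates 2 and 3 carried adrenal transcripts, with Cyp11b1, which makes corticosterone, at 5.62 and 6.05 against -6.55 on saline replicate 1 and -7.53 to -6.26 on the LPS arrays. The summed signal of the 7 adrenal cortex markers measured was 7.37 and 7.79 on those arrays (log2) and between -0.31 and 0.74 on the other 4. For the 8 adrenal medulla markers it was 6.33 and 5.71 against 1.34 to 2.35. The labelled tissue was borne out by its markers, with 8 of 8 oocyte genes and 8 of 9 granulosa cell genes (not Fshr) well above background on all arrays. Their summed signals were lowest on LPS replicate 1, at 4.07 and 4.49 (log2), against 4.32 to 5.55 and 5.30 to 6.39 elsewhere. For the 6 surface epithelium and oviduct markers the summed signal was 5.90 on replicate 1 of both treatments and between 4.56 and 5.24 on the other 4 arrays. The 6 arrays lay on 1 slide, read in 1 scan, with LPS replicates 2 and 3 in a row of their own. These differences bear on several members below, and their part in each result was not tested beyond the values given.

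At the study's criterion of a 2-fold difference with an unadjusted p under 0.05, 1 of the 51 members was higher after LPS (Ccl7) and 1 was lower (Cxcl10). Among all named genes 0.594% were higher and 1.17% lower by the same criterion. No member had an adjusted p under 0.05 (limma, Benjamini-Hochberg over all probes), the smallest being 0.27, and the background share was 0.0%. At an unadjusted p under 0.05 there were 13 members, against 15.6% of all named genes, and 11 of the 13 were members that were well above background on no array. The median log2 fold change was -0.18 over all 51 members and 0.05 over the 17 measured on every array. The corresponding medians were -0.03 over all named genes and 0.02 over those measured on every array. By sign, 21 members had a positive and 30 a negative fold change, and 45.5% of all named genes had a positive one. Of the 30, 17 were well above background on no array. Among the 31 members well above background on 1 array or more, 18 were positive, against 6454 of the 11718 named genes with such a signal.

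**Figure D1:**
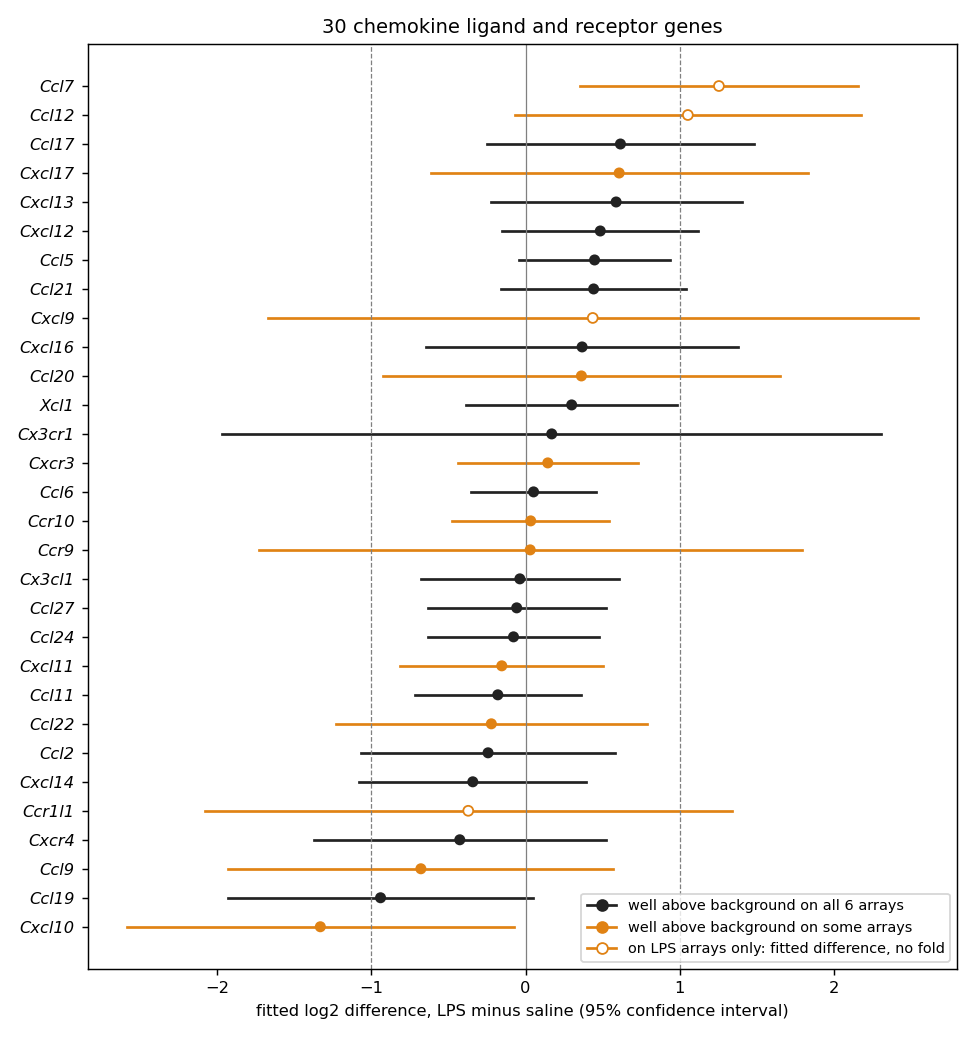
Fitted log2 difference, LPS minus saline, with its 95% confidence interval from limma (horizontal axis) for 30 of the 31 chemokine genes with a signal well above background on 1 array or more, in order of size. The 4 open points are genes well above background on LPS arrays only, for which the difference is no fold, and dashed lines mark a 2-fold difference. The intervals of Ccl7 and Cxcl10 leave out 0 and those of the other 28 genes do not.

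Promoter sequences are shown here, before the values of single genes, for the members the results turn on, since Cxcl10 and Ccl19 had the same pattern over the arrays and Ccl7 was the one member that passed the criterion upward. Of the 51 members, 40 had an entry among the RefSeq promoters of the GRCr8 assembly, and the 250 bases before the start were searched on both strands. The shares of all promoters are over all 33469 entries, while a member was counted by its first entry alone. The letters GAAANNGAAA, part of the element bound by interferon-activated factors, were in 3.41% of all promoters and in 2 of the 40 members, Ccl19 and Cxcl10. An NF-κB motif was in 6.33% of all promoters and in 9 of the 40 members: Ccl7, Ccl9, Ccl20, Ccr3, Cxcl1, Cxcl2, Cxcl6, Cxcl10 and Cxcl11. TATAAA was in 12.9% of all promoters and in 11 of the 40. A match is a description of letters and shows no binding. In the sequences below, capitals mark GAAANNGAAA in Cxcl10 (chr14:15988816-15989065, + strand, 243 bases before the start) and Ccl19 (chr5:61761165-61761414, - strand, 51 bases before it), and the NF-κB motif in Ccl7 (chr10:67513845-67514094, + strand, 59 bases before it), each given 5′ to 3′.
Cxcl10: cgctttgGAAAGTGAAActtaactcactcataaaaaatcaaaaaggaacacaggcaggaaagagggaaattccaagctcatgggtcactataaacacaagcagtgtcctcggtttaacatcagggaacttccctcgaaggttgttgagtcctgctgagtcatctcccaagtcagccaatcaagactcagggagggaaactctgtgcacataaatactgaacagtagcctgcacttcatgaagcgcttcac
Ccl19: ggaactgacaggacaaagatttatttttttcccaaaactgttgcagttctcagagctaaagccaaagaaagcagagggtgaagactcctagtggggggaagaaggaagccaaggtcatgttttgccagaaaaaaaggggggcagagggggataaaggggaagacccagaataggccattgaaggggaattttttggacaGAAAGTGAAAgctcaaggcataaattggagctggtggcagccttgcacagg
Ccl7: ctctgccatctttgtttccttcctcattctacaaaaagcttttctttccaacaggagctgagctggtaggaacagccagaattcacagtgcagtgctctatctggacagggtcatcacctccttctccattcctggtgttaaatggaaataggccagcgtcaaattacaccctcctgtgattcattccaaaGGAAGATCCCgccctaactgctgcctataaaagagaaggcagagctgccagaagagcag

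Among the CC ligands that attract monocytes, Ccl7 was at -4.33, -5.22 and -5.01 on LPS replicates 1, 2 and 3 and at -6.00, -5.55 and -6.77 on saline replicates 1, 2 and 3. Each LPS array lay above each saline array. The fitted log2 difference was 1.25 ± 0.38 (SE), with an unadjusted p of 0.013 and an adjusted p of 0.27 in limma, and an exact permutation test gave 0.1, the smallest two-sided p that 3 arrays against 3 allow. The signal was well above background on 2 LPS arrays and on no saline array, and since the mean LPS signal lay below the lowest signals well above background on the saline arrays, no fold is given. The difference depended on how background was removed: it was 0.17 with normexp correction and 0.04 on signals without background correction, and the criterion was not passed in either. Without LPS replicate 1 it was 0.99 and without saline replicate 3 it was 0.92, both below the criterion, and against saline replicate 1 alone, without saline replicates 2 and 3, it was 1.15. Within the slide row that held both treatments, where LPS is replicate 1 alone, it was 1.78.

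Ccl12, which like Ccl2 and Ccl7 signals through Ccr2, was at -4.15, -5.45 and -4.68 on the LPS arrays and at -4.97, -6.05 and -6.42 on the saline arrays. It was well above background on 2 LPS arrays and on no saline array, and the treatments overlapped. As for Ccl7, the mean LPS signal lay below the lowest signals well above background on the saline arrays, so no fold is given. Its fitted difference of 1.05 ± 0.47 (SE) did not pass the criterion (limma, unadjusted p = 0.062). With the replicate number as a block the same difference had an unadjusted p of 0.014 in limma, and the count of members higher at the criterion was 2 in place of 1. It was 0.08 with normexp correction, and 0.21 without saline replicates 2 and 3.

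Ccl2, the main monocyte attractant, was measured on every array, at -1.98, -2.73 and -2.85 after LPS and at -2.66, -1.70 and -2.47 after saline. The treatments overlapped, with the highest signal on saline replicate 2. This gave a log2 fold change of -0.24 ± 0.34 (SE), with a 95% confidence interval from -1.07 to 0.58. It was 0.14 without saline replicates 2 and 3, and 0.13 without scaling between arrays, a setting that added 0.38 to the difference of every member and moved the median of all probes from -0.04 to 0.34. Their receptor Ccr2 was well above background on no array.

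Other ligands of macrophages and T cells gave small or uneven differences. Ccl5, made by T cells and macrophages, was at -1.02, -1.19 and -1.49 after LPS and at -1.72, -1.46 and -1.87 after saline. Only LPS replicate 3 and saline replicate 2 overlapped, by a narrow margin. For Ccl5 the log2 fold change was 0.45 ± 0.20 (SE; limma, unadjusted p = 0.067, adjusted p = 0.34), and the interval reached from -0.04 to 0.94. The related ligands Ccl3 and Ccl4 were well above background on no array.

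Ccl20, the ligand of Ccr6, was at -3.61, -4.71 and -5.27 after LPS and at -4.11, -5.70 and -4.87 after saline. Replicate 1 of both treatments held the highest values and was the one well above background in each. This gave a log2 fold change of 0.36 ± 0.54 (SE), which was -0.42 without saline replicates 2 and 3. Its second probe, well above background on LPS replicate 1 alone, gave a fitted difference of 0.39, which is no fold. Ccl6 lay within -2.19 to -1.89 on all 6 arrays, the narrowest range among members measured on all arrays. Ccl9, a related myeloid ligand, was at -3.20, -4.14 and -4.60 after LPS and at -4.11, -2.38 and -3.41 after saline, with a log2 fold change of -0.68 ± 0.52 (SE) that was 0.13 without saline replicates 2 and 3.

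Among the ligands tied to eosinophils and type 2 responses, Ccl17, a ligand of Ccr4, was at -1.90, -2.83 and -2.95 after LPS and at -2.64, -3.50 and -3.39 after saline. At each replicate number the LPS array was the higher, while the treatments overlapped because saline replicate 1 exceeded LPS replicates 2 and 3. The log2 fold change was 0.62 ± 0.36 (SE; limma, unadjusted p = 0.14), and the interval ran from -0.25 to 1.48. Without saline replicates 2 and 3 the difference was 0.08. Ccl22, which shares Ccr4, was well above background on 5 arrays with a log2 fold change of -0.22 ± 0.42 (SE). Ccl24, an eosinophil attractant, was at 2.17, 2.03 and 1.97 after LPS and at 2.58, 1.88 and 1.94 after saline. Ccl11, which also acts on Ccr3, was at -3.26, -3.32 and -3.57 after LPS and at -3.11, -2.92 and -3.58 after saline. For both, the treatments overlapped and the difference was smaller than its SE.

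Ccl2, Ccl7, Ccl17 and Ccl20 are on the study's own list of changed genes, and of these Ccl7 alone passed the criterion here. That list was chosen on these samples, so it is not independent evidence of a direction.

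**Figure D2:**
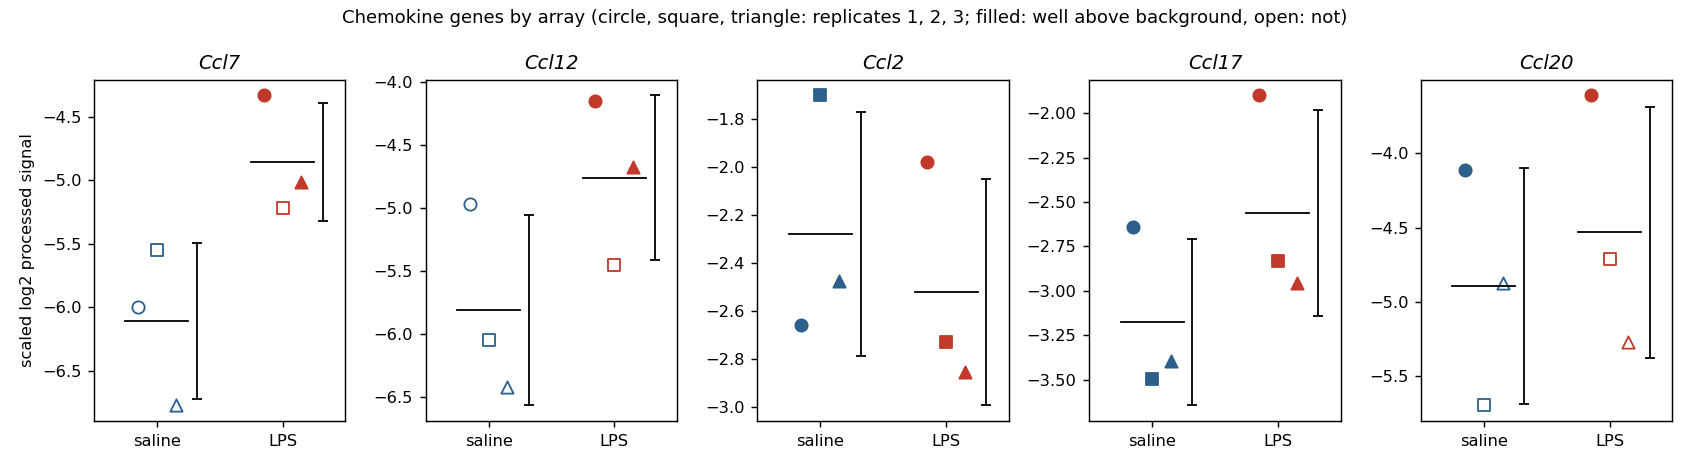
Scaled log2 processed signal (vertical axes, each with its own range) of Ccl7, Ccl12, Ccl2, Ccl17 and Ccl20 in saline (blue) and LPS (red) ovaries, 1 point an array, with the treatment mean as a line and its SD as a bar. Ccl7 does not overlap between treatments, and its saline points are all open, that is, not well above background.

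Among the homeostatic CC ligands, Ccl19 and Ccl21 both act on Ccr7 and bring dendritic cells and T cells together. Ccl19 was at -1.94, -2.33 and -2.44 after LPS and at -2.23, -0.67 and -0.98 after saline. Saline replicate 1 fell among the LPS arrays and saline replicates 2 and 3 stood above them. The log2 fold change was -0.94 ± 0.41 (SE; limma, unadjusted p = 0.059), and -0.01 without saline replicates 2 and 3. Without saline replicate 1 it was -1.41 and passed the criterion (limma, adjusted p = 0.089).

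Ccl21 was at 1.15, 2.02 and 1.77 after LPS and at 1.22, 1.25 and 1.14 after saline. The saline arrays lay close together, LPS replicate 1 lay among them and LPS replicates 2 and 3 lay above. Its log2 fold change was 0.44 ± 0.25 (SE; limma, unadjusted p = 0.12), with an interval from -0.16 to 1.04. LPS replicates 2 and 3 were also the arrays of the other slide row, and within the row that held both treatments the difference was -0.06. Ccl27, a ligand of Ccr10, was at -0.25, -0.88 and -1.04 after LPS and at -0.55, -0.76 and -0.68 after saline. Ccr10 was at -4.02, -3.82 and -3.84 after LPS and at -3.80, -3.68 and -4.30 after saline. For Ccl27 and Ccr10 the treatments overlapped and the difference was smaller than its SE. Ccr7, Ccl25 and Ccl28 were well above background on no array.

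The 3 interferon-inducible CXC ligands share the receptor Cxcr3. Cxcl10 was at -4.50, -4.22 and -4.16 after LPS and at -4.24, -2.27 and -2.37 after saline. It was well above background on replicates 2 and 3 of each treatment and on neither replicate 1 array. Saline replicates 2 and 3 stood apart from the other 4 arrays, and saline replicate 1 lay within the LPS range. The log2 fold change was -1.33 ± 0.52 (SE), with an unadjusted p of 0.040 and an adjusted p of 0.29 in limma, and the exact permutation test gave 0.3. Without saline replicates 2 and 3 it was -0.05, a difference from a single saline array near background and so no fold. Without saline replicate 1 it was -1.97 with an adjusted p of 0.015 in limma, and without saline replicate 2 or replicate 3 it was -0.99 or -1.04 and the call was lost. Within the slide row that held both treatments, where LPS is replicate 1 alone and near background, the difference was -1.54 and is likewise no fold.

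Cxcl9 and Cxcl11 did not repeat the pattern of Cxcl10. Cxcl9 was at -3.29, -5.64 and -6.80 after LPS and at -5.38, -5.11 and -6.56 after saline, and it was well above background on LPS replicate 1 alone. Cxcl11 was at -4.69, -4.48 and -4.73 after LPS and at -3.90, -4.73 and -4.80 after saline, with its highest value on saline replicate 1. Cxcr3 was at -4.13, -4.14 and -4.50 after LPS and at -4.01, -4.43 and -4.77 after saline, and the treatments overlapped.

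**Figure D3:**
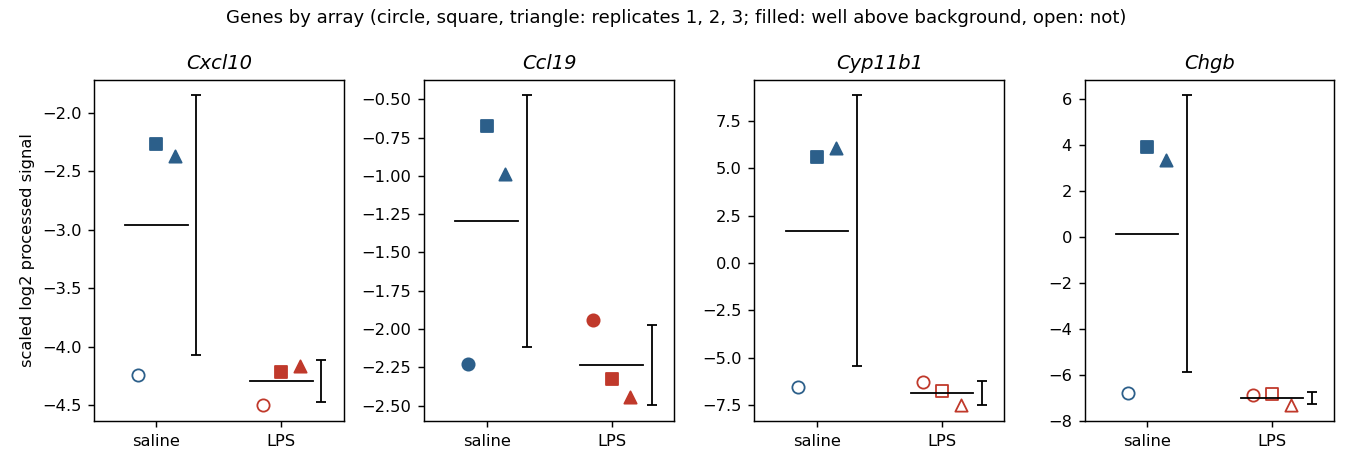
Scaled log2 processed signal (vertical axes, each with its own range) of the ligands Cxcl10 and Ccl19 and of the adrenal genes Cyp11b1 and Chgb on each array, saline in blue and LPS in red, with the treatment mean as a line and its SD as a bar. In all 4 genes saline replicates 2 and 3 lie above the other 4 arrays.

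Stat2, a transcription factor of the interferon response, was at -0.07 and -0.18 on saline replicates 2 and 3 against -0.69 to -0.52 on the other 4 arrays. Myd88, an adaptor of Toll-like receptors, was at 0.67 and 0.59 against -0.21 to 0.04. Cxcl10, Ccl19, Stat2, Myd88 and the adrenal markers had the same 2 arrays at the top. This order was found in 6 of the 16 genes upstream of chemokine transcription with a signal and in 2 of the 31 members with a signal (Ccl19 and Cxcl10). It was also found in 5 of 7 blood endothelium genes, in 3 of 4 red blood cell genes and in 15.4% of all named genes with a signal. Whether adrenal RNA, or RNA of these other cells, accounts for the chemokine values was not tested.

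Of the 5 homeostatic and other CXC ligands, 4 had a positive log2 fold change, and 0 passed the criterion. The median of the 5 was 0.48. Without saline replicates 2 and 3 the differences were 0.07 (Cxcl12), 0.05 (Cxcl13), -0.49 (Cxcl16), -0.50 (Cxcl17) and 0.11 (Cxcl14, negative by the main values). Cxcl12, made by stroma, was at 1.74, 1.21 and 1.12 after LPS and at 1.28, 0.75 and 0.58 after saline. The LPS array was the higher at each replicate number, and the treatments overlapped through saline replicate 1. The log2 fold change was 0.48 ± 0.27 (SE; limma, unadjusted p = 0.11), with an interval from -0.15 to 1.12. The second Cxcl12 probe, designed to another transcript record, was at 0.49, 1.79 and 1.66 after LPS and at 0.45, 0.72 and 0.83 after saline, and its log2 fold change was 0.65. Both probes had a positive fold change, but replicate 1 held the highest values of each treatment for the first probe and the lowest for the second.

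The signalling receptor of Cxcl12, Cxcr4, was at -0.54, -1.10 and -0.88 after LPS and at -1.05, 0.44 and -0.63 after saline. Saline replicate 2 was the highest array and the treatments overlapped. Its log2 fold change was -0.43 ± 0.40 (SE) and was 0.21 without saline replicates 2 and 3. Ackr3, the atypical receptor that removes Cxcl12, was at -1.18, -1.45 and -1.76 after LPS and at -1.38, -1.92 and -2.41 after saline, with a log2 fold change of 0.44 ± 0.30 (SE).

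Cxcl13, which attracts B cells through Cxcr5, was at -2.28, -2.40 and -1.48 after LPS and at -2.10, -2.95 and -2.87 after saline. LPS replicate 3 was the highest array, and saline replicate 1 exceeded the other LPS arrays. For Cxcl13 the log2 fold change was 0.59 ± 0.34 (SE; limma, unadjusted p = 0.13), and Cxcr5 was well above background on no array. Cxcl14 was at -1.06, -0.71 and -0.15 after LPS and at -0.75, -0.16 and 0.02 after saline. At each replicate number the saline array was the higher, the treatments overlapped, and the log2 fold change of -0.34 ± 0.31 (SE) was 0.03 without scaling between arrays, through the same shift of 0.38. The neutrophil-attracting ligands Cxcl1, Cxcl2 and Cxcl6 and their receptors Cxcr1 and Cxcr2 were well above background on no array.

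Cx3cl1, the membrane-bound ligand fractalkine, was at 1.90, 1.15 and 1.16 after LPS and at 1.74, 1.23 and 1.35 after saline. Cx3cr1, its receptor on monocytes and resident macrophages, was at 1.83, -0.62 and -1.13 after LPS and at 1.20, -0.61 and -1.02 after saline. Replicate 1 of both treatments stood above the other 4 arrays, for Cx3cr1 by at least 1.81 on the log2 scale. LPS minus saline for Cx3cr1 was 0.63, -0.004 and -0.11 at replicates 1, 2 and 3. The log2 fold change of Cx3cr1 was 0.17 with an SE of 0.90, the widest error among the members measured on all arrays. Cxcl16, the ligand of Cxcr6, had a like order, at 1.39, 0.54 and 0.59 after LPS and 1.33, 0.10 and -0.01 after saline. Xcl1, made by activated T and natural killer cells, was at -2.60, -3.34 and -3.57 after LPS and at -3.35, -3.72 and -3.35 after saline, with a log2 fold change of 0.30 ± 0.29 (SE). Xcr1 was well above background on no array.

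**Figure D4:**
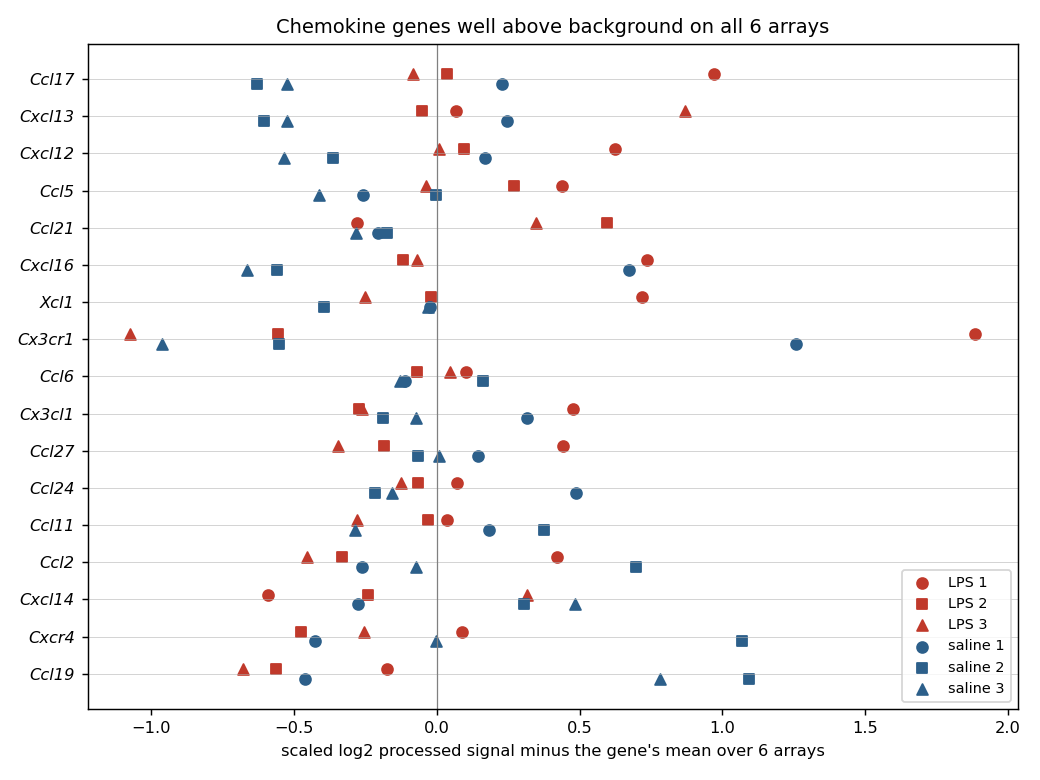
Scaled log2 processed signal minus the gene's mean over the 6 arrays (horizontal axis) for the 17 chemokine genes well above background on all arrays, ordered by fold change; colour gives the treatment and the symbol the replicate. Cx3cr1 has the widest spread, with both replicate 1 arrays to the right, and Ccl19 has saline replicates 2 and 3 to the right.

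The same order by replicate number was found in other members. Of the 31 members with a signal well above background on 1 array or more, 11 had replicate 1 of both treatments above the other 4 arrays: Ccl17, Ccl20, Ccl24, Ccl27, Ccr9, Cx3cl1, Cx3cr1, Cxcl12, Cxcl16, Cxcl17 and Cxcr3. Over all named genes with such a signal the share was 24.7%. In 2 members, Cxcl10 and Cxcl14, both replicate 1 arrays lay below the other 4, against 18.0% of named genes. For replicate 2 the counts were 0 and 0, against 2.79% and 1.91% of named genes. For replicate 3 there was 1 member above (Cxcl14), against 2.97%, and there were 4 below (Ccl11, Cx3cr1, Cxcl9 and Cxcr3), against 6.32%. The gap of Cx3cr1 was equalled or exceeded in 13 of 11718 genes, itself included. Of the 14 macrophage and monocyte markers, Aif1 and Cd68 had both replicate 1 arrays at the top and the other 12 did not. Both were at the top in 6 of 6 surface epithelium and oviduct genes with a signal and in 4 of 5 kidney genes. They were at the bottom in 4 of 9 granulosa cell genes and 4 of 7 blood endothelium genes. The part of any of these cells in the order was not tested.

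For members measured on every array, the treatments were separate in 0 of the 17, against 12.8% of all named genes measured on every array. Taken by replicate number, LPS was above saline in 3 of 3 pairs in 4 members (Ccl5, Ccl17, Cxcl12 and Cxcl16), against 18.3% of those genes, and below it in 1 (Cxcl14), against 17.4%. With the replicate number as a block, 3 of the 17 had an unadjusted p under 0.05 in limma (Ccl5, Ccl17 and Cxcl12), against 6.75% of those genes, and the smallest adjusted p was 0.17. The fold changes of the 17 ran from -0.94 to 0.62, 9 were positive and 8 negative, and 8 were smaller than their SE. Without the block the smallest unadjusted p was 0.059 (limma). In 7 of the 17 the 95% confidence interval lay wholly within a 2-fold difference either way, while in the other 10 it reached a 2-fold difference in at least 1 direction.

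Over all 51 members the treatments were separate with LPS higher in 2 (Ccl7 among them), against 5.31% of named genes, and with LPS lower in 13, against 17.9%. All 13 were among the 20 members well above background on no array. Of all named genes well above background on no array, 57.2% were separate with LPS lower. The fitted differences of these 20 members ran from -0.71 to 0.24 with a median of -0.58, and the median of the 3436 named genes of this kind was -0.57. The software marked these signals well above background on no array, and it writes a surrogate value for spots too dim to measure. No fold is therefore given for them.

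**Figure D5:**
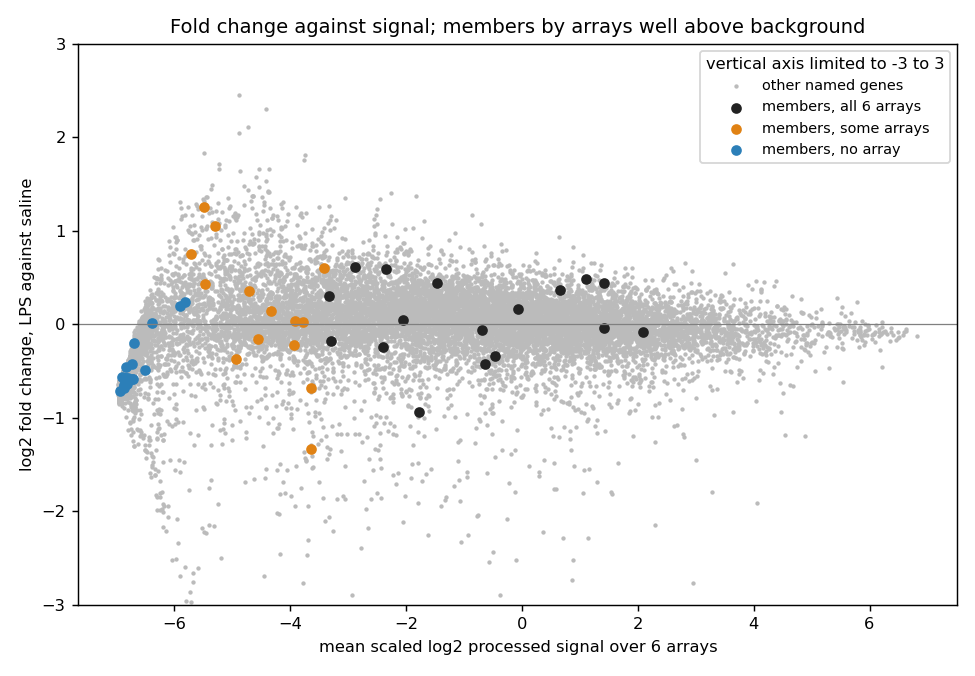
Log2 fold change, LPS against saline (vertical axis, limited to -3 to 3, which leaves out 46 genes), against the mean scaled log2 signal over the 6 arrays (horizontal axis) for all named genes (grey) and the 51 chemokine genes, coloured by the arrays on which they were well above background. Members well above background on no array lie with the other dim genes at the left, most of them below 0.

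Among the receptors, 2 of 18 (Cx3cr1 and Cxcr4) were well above background on all arrays, 5 on some and 11 on none, compared with 15, 9 and 9 of the 33 ligands. No receptor passed the criterion. Besides those described, Ccr9 was well above background on 4 arrays, both replicate 1 arrays among them, and Ccr1l1 on 1. In these data the ligands Ccl2, Ccl17, Ccl19, Ccl21, Cxcl13, Cxcl16 and Xcl1 were measured on all arrays while Ccr2, Ccr4, Ccr7, Cxcr5, Cxcr6 and Xcr1, their receptors, were well above background on none.

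In the other genes of the pathway 0 passed the criterion. For the counts by sign below, 6454 of the 11718 named genes well above background on 1 array or more had a positive fold change. Of 33 genes of signalling below the receptors, 25 had a signal well above background on 1 array or more and 17 of these had a positive fold change, with a median of 0.04. The largest differences, of Rgs18, Rgs1 and Grk3, were in genes well above background on no array. Of 23 genes upstream of chemokine transcription, 16 had a signal well above background on 1 array or more, and 6 of these had a positive and 10 a negative fold change. Il6 was well above background on no array, and Tlr4, the LPS receptor, on 2 LPS arrays and no saline array. Tnf, a cytokine that drives chemokine genes, was at -2.50, -3.03 and -3.18 after LPS and at -3.73, -3.17 and -3.69 after saline. Of 11 genes for processing and presentation of chemokines outside the cell, 9 were positive, and the largest differences were those of Mmp9 at -0.80, Cpn1, well above background on LPS replicate 1 only, and Hs6st1 at 0.41. Of 7 atypical receptors and related ligands the largest were those of Rarres2 (chemerin) at 0.54, Ackr3 at 0.44 and Ppbp, well above background on 1 LPS array only.

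Among markers of the cells that make or answer chemokines, 11 of 14 macrophage and monocyte genes had a positive fold change, with a median of 0.25. Of all named genes well above background on 1 array or more, 6454 of 11718 had one. The summed signal of the macrophage and monocyte list ran from 3.87 to 3.91 (log2) on the LPS arrays and from 3.55 to 3.81 on the saline arrays. Mrc1, the mannose receptor, passed the criterion upward (limma, adjusted p = 0.27). It was near background on the saline arrays and has only a bound. With dim saline signals raised to the lowest signal well above background, the fold was 2.08, a value that carries no error. Without background correction no probe passed the criterion upward. Adgre1, a macrophage surface receptor, was at -1.89, -1.71 and -1.46 after LPS and at -2.90, -2.15 and -2.44 after saline. The neutrophil list had 5 of 9 positive, with Elane and Ctsg well above background on no array, and the T and B lymphocyte list had 6 of 11, with Cd3e on no array. The part of these cells in the chemokine values was not tested.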

How the data were processed

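Ovarian RNA was measured on 6 single-colour Agilent arrays, grouped by the treatment and replicate number in the labels. The authors deposited the spot intensity values written by Feature Extraction 10.5.1.1, whose processed signal has the background subtracted and a surrogate for spots too dim to measure, and a table of the same signals, equal within 0.497%. Log2 values were computed here from the deposited intensities. Flagged spots were removed, log2 values of a probe's spots were averaged, and the 75th percentile of each array was subtracted. limma 3.58.1 in R 4.3.3 (lmFit, eBayes) was fitted over 30367 probes without covariates, with Benjamini-Hochberg adjustment, and was tested on simulated data. The study's methods give a criterion of 2-fold with p under 0.05 and name analysis of variance without tying it to any assay, and neither a normalization nor an array test is stated. Genes were named through RefSeq accessions with a GRCr8 table (17998 probes matched, 12369 did not), and 1 probe a gene was kept, that of the highest mean. Of 53 symbols in that table that fit the families, Ccr8 and Cxcl3 had no matched probe.

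Values on all arrays are given for members past the criterion, members well above background on every array, those on the study's list, and their partners with a signal, and other members by counts and range. From each pathway list the genes past the criterion and those of the 3 largest differences that are reported here are named, and from the marker lists those that bear on a result. A gene whose signal was near background throughout 1 treatment has only a bound. Some genes that this rule names are not reported here. The members and lists were chosen with earlier results of these data known. Arrays with the same replicate number deviated together from their treatment means, with correlations over 30364 probes of 0.298, 0.215 and 0.254. Of unmatched arrays, LPS replicate 2 with saline replicate 3 gave 0.160 and LPS replicate 3 with saline replicate 2 gave 0.068. Unmatched pairs with a replicate 1 array were negative. The pairing rests on these correlations alone, which set replicates 2 and 3 apart less than replicate 1. The number of arrays limits the precision, and p-values measure the spread between these samples.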

Additional observations from a re-analysis of the deposited data

How the results depend on the processing

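The 20 alternatives changed the normalization, background correction, dim and flagged spots, test, slide row, replicate number, choice of probe and the arrays used. Of 276 values for 14 single members, 235 kept their direction and side of the criterion, 17 lost it, 7 gained it and 17 turned. One direction under every alternative was kept by 19 of the 51 members, 11 of which were well above background on no array. The cause of each change was not tested. Without saline replicates 2 and 3 a single saline array remains, which is assumed to vary like the LPS arrays, and the fit with the slide row compares LPS replicate 1 alone with the saline arrays. Both are among the 20 alternatives. The counts of calls given for them below rest on a single saline array or on LPS replicate 1 alone, and no conclusion is drawn from those counts.

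Probes measured throughout a treatment are those well above background on each of its 3 arrays. Members higher at the criterion (1 by the main values) numbered 3 without scaling between arrays, 6 with the slide row as a block and 2 with the replicate block. They numbered 0 with normexp, without background correction and among probes measured throughout a treatment. Members lower (1) numbered 0 without scaling and with quantile normalization, normexp or no background correction. The lower members also numbered 0 among probes measured throughout a treatment and by an unmoderated analysis of variance. With 1 array left out they ranged from 0 to 3 higher and from 0 to 2 lower, members with an adjusted p under 0.05 (limma) from 0 to 1 (Cxcl10, without saline replicate 1), positive fold changes from 14 to 26 and the median from -0.54 to 0.01. Positive fold changes numbered 11 of 51 without background correction and 12 of 22 among probes measured throughout a treatment.

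Over all probes, 186 were higher and 327 lower. The higher count was 1003 without scaling, 118 with quantile normalization, 2 with normexp, 0 without background correction, 103 among probes measured throughout a treatment, 100 by an unmoderated analysis of variance, 1489 with the slide row and 494 without saline replicates 2 and 3. The lower count was 173 with quantile normalization, 211 without background correction, 177 among probes measured throughout a treatment, 48 by an unmoderated analysis of variance, 66 with the slide row and 506 without saline replicates 2 and 3. With 1 array left out the counts ranged from 129 to 374 and from 81 to 757.

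The fold changes that turned were as follows. Without scaling, which added 0.38 to every member, Ccl2 was 0.13 and Cxcl14 was 0.033. With normexp Ccl20 was -0.019. Without background correction Ccl12 was -0.00056 and Ccl20 was -0.049. With the slide row Ccl2 was 0.30, Ccl9 was 0.096 and Ccl21 was -0.059. Without saline replicates 2 and 3 Ccl2 was 0.14, Ccl9 was 0.13, Ccl20 was -0.42, Cxcl14 was 0.11 and Cxcr4 was 0.21. With 1 array left out Ccl2 ranged from -0.51 to 0.045, Ccl20 from -0.098 to 0.75 and Cxcr4 from -0.75 to 0.0014. The replicate block left every fold change as it was and, beside Ccl12, changed no call among these members.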

Other observations

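Among 5 dendritic and mast cell markers 3 had a positive fold change. Cpa3, a mast cell protease, was at -2.98, -2.71 and -2.25 after LPS and at -3.81, -3.67 and -3.23 after saline, and each LPS array lay above each saline array, but its log2 fold change of 0.93 did not pass the criterion (limma, adjusted p = 0.27). Among 8 markers of ovarian stroma and mesenchyme 4 were positive and 4 negative, the lowest being Star at -2.54, which was highest on saline replicates 2 and 3. Tcf21, a transcription factor of mesenchyme, passed the criterion, at -1.66, -2.00 and -2.20 after LPS and -2.76, -3.38 and -2.96 after saline (log2 fold change 1.08 ± 0.24, SE). Of 5 red blood cell markers 1 was positive, and Slc4a1, the anion exchanger of the red cell membrane, was lower by the criterion, at -0.81, -1.25 and -1.24 after LPS and -0.47, 1.12 and -0.43 after saline.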
